A study of Mus musculus with 51 samples.

Results

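The proximal part of mouse chromosome 17 carried H3K27me3 mainly on the paternal allele in the extra-embryonic ectoderm (ExE) over many megabases on both sides of Airn. The region described here runs from 3 to 17 Mb (GRCm38) without the 650 kb interval that holds Airn, Igf2r and the Slc22a genes (391.3 kb before to 258.7 kb after the start of Airn at chr17:12741311), which leaves 13.35 Mb with 245 annotated genes, 85 of them protein-coding. Its members are the peaks of the 6 allelic count tables that lie wholly inside these limits, 768 of 144952 autosomal peaks. They comprise 93 H3K27me3 peaks in ExE and 94 in epiblast, 227 and 190 H3K4me3 peaks, and 62 and 102 H3K36me3 peaks. Peaks counted as informative for the parent of origin if 20 or more reads of 1 allele were found in any wild-type library, which was met by 74 and 72 H3K27me3 peaks, 118 and 97 H3K4me3 peaks and 34 and 51 H3K36me3 peaks in ExE and epiblast respectively. The region was chosen from the allelic bias of H3K27me3 in the wild-type ExE libraries, so those shares and calls are given as a description without a test.

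Chromatin came from embryos at embryonic day 6.5, dissected into epiblast and ExE and profiled by native ultra-low-input ChIP-seq after micrococcal nuclease digestion. Wild-type embryos were F1 hybrids of the inbred strains C57BL6/Babr (B6) and CAST/Ei (CAST, of the subspecies Mus musculus castaneus), made in both directions and written mother first as B6/CAST and CAST/B6. In matDKO/CAST embryos the mothers, on a mixed B6 and 129 background, carried floxed alleles of Dnmt3a and Dnmt3b that Zp3-cre, active in growing oocytes, had deleted there, and the father was CAST, so the maternal genome arrived without de novo DNA methylation from the oocyte. There were 2 libraries per cross, tissue and mark, each from a pool of several embryos whose chromatin was divided between antibodies, so that p-values measure the spread between pools, which may be partly technical. The matDKO/CAST cross was made in a single direction, and in it the CAST strain and paternal origin cannot be told apart. Some later matDKO/CAST inputs are labelled with a B6 mother in place of the mixed background.

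H3K27me3 is deposited by Polycomb repressive complex 2 and marks silent or poised genes, H3K4me3 marks active or poised promoters and H3K36me3 marks transcribed gene bodies. Airn is a long non-coding RNA transcribed from the paternal allele of the Igf2r cluster, where the maternal allele is methylated in the oocyte. In extra-embryonic lineages Airn is known for silencing genes far beyond its own transcript, with Polycomb marks on the paternal chromosome. Genes of the region include Pde10a (a cyclic nucleotide phosphodiesterase), Arid1b (a subunit of the SWI/SNF chromatin remodelling complex), T (brachyury, the T-box factor of early mesoderm), Dact2 (a modulator of Wnt and TGF-beta signalling), Smoc2 (a matricellular protein), Thbs2 (thrombospondin 2) and Dll1 (a Notch ligand).

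4 promoters are shown, those of genes on the lists described further on whose H3K4me3 was maternally biased in ExE in both wild-type crosses. Each runs from 250 bases before to 50 bases after a RefSeq transcription start (GRCm38.p6), is written 5′ to 3′ on the strand of the gene, and has its CG dinucleotides in capitals.

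Arid1b, chr17:4994824-4995123, plus strand: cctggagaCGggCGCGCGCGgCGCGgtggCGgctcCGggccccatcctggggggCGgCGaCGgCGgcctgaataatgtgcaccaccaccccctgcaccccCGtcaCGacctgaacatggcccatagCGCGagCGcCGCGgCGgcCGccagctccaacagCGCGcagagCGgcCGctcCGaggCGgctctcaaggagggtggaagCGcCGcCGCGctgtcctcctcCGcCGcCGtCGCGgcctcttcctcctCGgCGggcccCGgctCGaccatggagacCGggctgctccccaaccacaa

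Rps6ka2, chr17:7169865-7170164, plus strand: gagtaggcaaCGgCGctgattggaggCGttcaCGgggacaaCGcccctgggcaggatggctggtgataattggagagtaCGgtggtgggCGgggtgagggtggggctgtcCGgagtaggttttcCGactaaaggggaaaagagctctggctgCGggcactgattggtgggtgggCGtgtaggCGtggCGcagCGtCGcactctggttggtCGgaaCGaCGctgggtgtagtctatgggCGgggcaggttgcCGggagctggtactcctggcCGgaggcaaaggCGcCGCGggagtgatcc

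Pde10a, chr17:8801495-8801794, plus strand: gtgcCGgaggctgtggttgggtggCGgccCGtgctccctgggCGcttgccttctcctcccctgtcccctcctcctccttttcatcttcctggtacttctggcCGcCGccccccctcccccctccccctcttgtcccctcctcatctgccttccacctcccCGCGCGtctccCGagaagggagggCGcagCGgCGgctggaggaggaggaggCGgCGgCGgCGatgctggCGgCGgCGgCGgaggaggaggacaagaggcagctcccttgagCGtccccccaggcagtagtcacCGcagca

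Dact2, chr17:14203782-14204081, minus strand: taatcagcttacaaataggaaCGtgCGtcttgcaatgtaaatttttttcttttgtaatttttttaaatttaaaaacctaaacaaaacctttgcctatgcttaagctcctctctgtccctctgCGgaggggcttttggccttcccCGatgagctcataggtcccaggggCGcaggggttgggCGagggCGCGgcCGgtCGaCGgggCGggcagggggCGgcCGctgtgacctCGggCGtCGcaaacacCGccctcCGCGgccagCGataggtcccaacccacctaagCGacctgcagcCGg

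The 4 promoters hold 42, 24, 23 and 23 CG dinucleotides. The other RefSeq promoters in peaks with a maternal bias in both crosses hold 37 (Gm52310), 25 (Fndc1), 7 (1700010I14Rik) and 6, 8 and 39 (Gm34510, 3 starts in the Dact2 peak). The median is 7 in all 32851 RefSeq promoters of this length, of which 94.6% hold at least 1. Among the 70 RefSeq promoters of the region inside an informative H3K4me3 peak, the 18 in peaks with a maternal bias in the joint fit had a median of 23.5 CG dinucleotides (6 to 57) and the 52 in the other peaks a median of 19.5, so a median above that of all promoters was shared by both kinds.

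Allelic read totals in autosomal peaks ranged from 0.271 M to 6.82 M reads per library, and from 1110 to 138300 reads fell into the region, fewest for H3K36me3 in both tissues and for H3K27me3 in epiblast. The labelled tissues were checked by total H3K4me3 at marker starts. Of 7 ExE markers, Bmp4, Cdx2 and Tfap2c were higher in all ExE libraries than in all epiblast libraries and Esrrb was lower, and of 6 epiblast markers Fgf5, Nanog, Pou5f1 and Tdgf1 were higher in epiblast. Elf5, a defining ExE marker, was near background in both tissues, at 0.213 to 0.459 RPKM in ExE and 0.0911 to 0.314 RPKM in epiblast. Of 6 visceral endoderm markers, Apob, Cubn and Ttr were higher in ExE, and the summed level of the list was 31.9 to 51.6 RPKM in ExE against 15.2 to 31.2 RPKM in epiblast. The 3 decidual markers overlapped between tissues (6.20 to 8.28 RPKM in ExE and 4.57 to 12.1 RPKM in epiblast), with the decidual prolactin gene Prl8a2 at no more than 0.304 RPKM, and the 2 haemoglobin genes summed to at most 0.649 RPKM. The part of other cell types in the differences between tissues was not tested, and in pools of whole tissue fewer marked cells and less of a mark per cell cannot be told apart.

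H3K27me3 in ExE formed long blocks in this region. The 93 peaks covered 8.83 Mb, or 66.2% of the region, against 20.4% of the autosomes for all peaks of the table. Their median length was 25.5 kb, against 11 kb for all autosomal peaks, and 23 were longer than 100 kb. The longest, chr17:4348500-5146000, spanned 797.5 kb up to and into Arid1b. The cover was not unbroken, since between 6 and 7 Mb, where Tulp4 and Ezr lie, 5 peaks held only 237 allelic wild-type reads.

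Over the region the B6/CAST libraries had a paternal share of H3K27me3 reads of 79.9% and 79.4%, and the CAST/B6 libraries of 82.1% and 79.4%. In the matDKO/CAST libraries it was 51.2% and 51.9%, lower than in all wild-type libraries (difference of the means -28.6 percentage points). Shares over the rest of chromosome 17 were 50.5% to 51.9% in the wild type and 44.6% and 47.4% in matDKO/CAST. On the log2 scale of the odds relative to the other autosomes of the same library, the region stood at 2.05 in the wild type (mean, n = 4) and at 0.36 in matDKO/CAST (mean, n = 2).

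Per peak, 52 of the 74 informative H3K27me3 peaks in ExE had a paternal bias in both wild-type crosses and none a maternal one, against 1.12% and 0.226% of all informative autosomal peaks; the region was chosen on this count. Of the 52, 32 lay before and 20 after Airn. The outermost were chr17:3309500-3488500 over Tiam2, a Rac exchange factor, and the intergenic chr17:16638500-16668000. Over Tiam2 the shares were 67.0%, 67.7%, 68.9% and 64.2% in the wild type and 49.1% and 48.4% in matDKO/CAST. At the far end they were 68.3%, 67.6%, 67.4% and 56.8%, with 56.7% and 45.2% in matDKO/CAST, where the groups nearly met.

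The wild-type paternal share of the 52 peaks ran from 58.0% to 92.8% with a median of 79.6%. In matDKO/CAST the same peaks had a median of 51.9% and a range of 35.8% to 66.7%, and in 49 of the 52 both matDKO/CAST libraries lay below all 4 wild-type libraries. The 22 informative peaks without a call in both crosses had a median share of 58.9%, a median length of 11.5 kb and a median of 210 reads, against 69.2 kb and 2624 reads for the 52, so they were also the less deeply measured peaks. In 60 of the 74 peaks all 4 wild-type libraries were above 50%, and in 0 peaks were all 4 below. The peak just inside the threshold was chr17:9787500-9805500 (larger adjusted p of the crosses 0.0309; 89.8% paternal in B6/CAST and 59.6% in CAST/B6, 683 reads), and the one just outside was chr17:16733000-16740500 (0.118; 63.4% and 72.1%, 139 reads).

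Several long peaks with many wild-type reads show the pattern at the gene level. Across the later part of Pde10a and beyond (chr17:8719500-9347000) the paternal share was 85.0%, 84.2%, 85.9% and 82.6%, with 51.0% and 53.4% in matDKO/CAST. The long Arid1b block had 80.6%, 80.1%, 85.4% and 81.8% in the wild type and 51.3% and 49.9% in matDKO/CAST. In each of these the 4 wild-type libraries lay close together and far above both matDKO/CAST libraries.

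The peak that takes in Dact2 and Smoc2 (chr17:14181000-14582000) had shares of 79.9%, 79.8%, 80.3% and 79.2%, with 51.4% and 52.8% in matDKO/CAST. Thbs2, farther from Airn, had 80.2%, 80.3%, 82.7% and 81.5% over its gene body, with 52.5% and 52.3% in matDKO/CAST.

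The level of the bias varied with position (plot of paternal share by distance from Airn). Between 10 and 4 Mb before Airn the wild-type share stood at 76.8% to 77.2% in classes of 2 Mb. It was 84.4% ± 1.0 (SD, n = 4) from 4 to 2 Mb before Airn, 89.8% ± 1.8 from 2 to 1 Mb and 88.1% ± 1.4 in the last megabase before it. After Airn it was 75.5% ± 1.7 in the first megabase, on 2863 reads, 79.9% ± 0.5 in the next, 68.3% ± 2.2 from 2 to 3 Mb and 60.2% ± 2.9 beyond 3 Mb. The profile was therefore not symmetric around Airn: the class beyond 3 Mb on the far side was lower in all 4 libraries than every class up to 10 Mb before it. Across the 74 peaks the share had no linear relation to the absolute distance (Pearson's r = 0.014, Spearman's rho = -0.072, peaks of the same libraries). The matDKO/CAST shares ranged from 48.2% to 55.7% over the same classes.

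**Figure D1:**
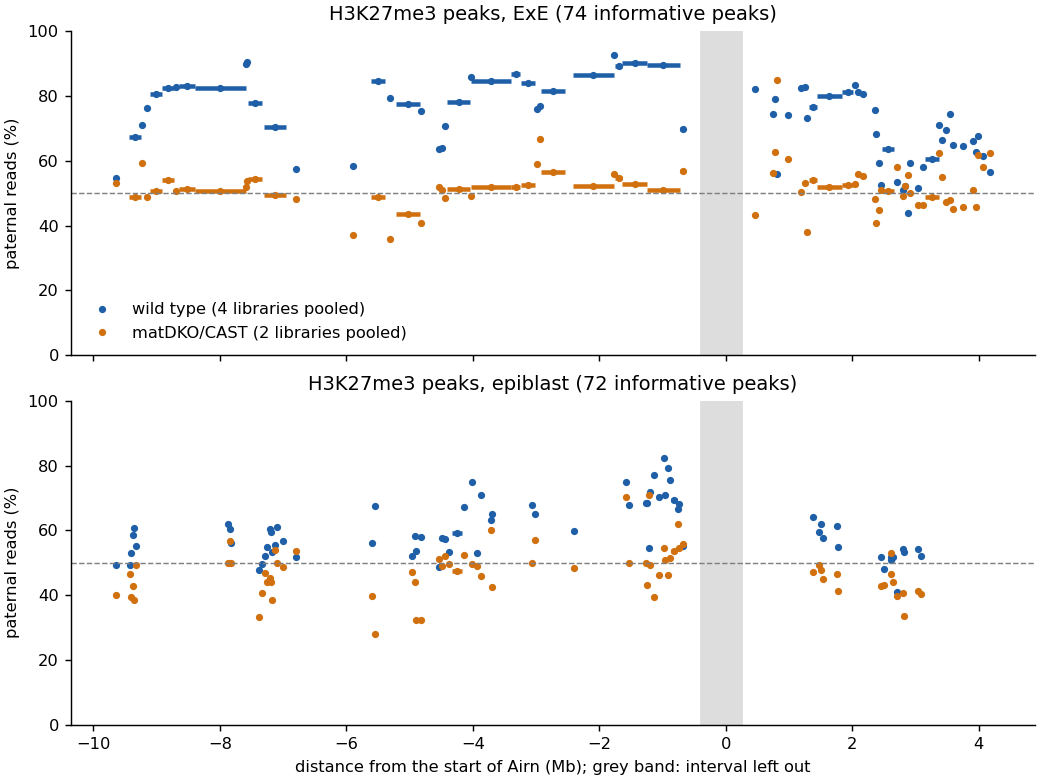
Paternal share of H3K27me3 reads (%, vertical axis) of each informative peak against the distance of the peak from the start of Airn (Mb, horizontal axis), in ExE (above) and epiblast (below). Horizontal bars give the extent of each peak, points its middle, colours the wild type (reads of 4 libraries summed) and matDKO/CAST (2 libraries summed), and the grey band the interval left out; in ExE most wild-type peaks lie above 60% and matDKO/CAST peaks lie near 50%.

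A weak excess of the paternal allele, which is always CAST in this cross, was found in matDKO/CAST. The region was chosen on the wild-type libraries, but with earlier results of these data known. Parent and strain cannot be told apart here. The raw share was 51.2% and 51.9% over the region, 48.7% in both libraries over the interval left out, and 43.9% and 46.7% over the other autosomes. Of the 74 peaks, 15 were called higher on the paternal allele and 0 on the maternal allele, against 0.818% and 1.29% of all informative autosomal peaks, and the median log2 ratio was 0.37, against 0.00 over all peaks. These ratios are relative to the scaling of each library's allele columns, in which the maternal columns had gained reads from a second alignment to 129 and a call is not a test of the raw share against 50%. Of the 15 called peaks, 11 were also paternal in both wild-type crosses, and 14 had a lower share than in B6/CAST. At chr17:9812000-10193000, beside Qk, the matDKO/CAST shares were 55.9% and 57.2% and the wild-type shares 84.3%, 82.9%, 80.4% and 78.7%. At chr17:13698000-13762500, over Tcte2 and Afdn (afadin, a junction protein), they were 59.0% and 63.8%, with 79.9%, 72.2%, 67.9% and 76.2% in the wild type; both peaks were picked after their values were seen. The count rose to 35 (34 paternal, 1 maternal) with the library as a block, fell to 2 with DESeq2, and was 9 without matDKO/CAST replicate 2 and 27 without replicate 3.

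The levels of the alleles separated the crosses in 1 direction (plot of allele levels). In RPM (reads per 1 M autosomal allelic reads of the library), the maternal allele of the region had 4606 and 4670 reads in B6/CAST and 3765 and 3956 in CAST/B6, a mean of 4250 ± 456 (SD, n = 4), against 16275 and 13651 in matDKO/CAST, 3.52-fold higher in the mean. The paternal allele had 18306 and 17967 reads in B6/CAST, 17246 and 15258 in CAST/B6, and 17056 and 14749 in matDKO/CAST, so the groups overlapped, at 0.92-fold. In 55 of the 74 peaks the maternal level of both matDKO/CAST libraries was above all 4 wild-type libraries, which was so in 22.6% of all informative peaks, and in 0 peaks was it below. For the paternal level 2 peaks were above and 7 below, against 6.59% and 24.2% of all peaks. With reads scaled to the library's reads of the same allele only, the maternal ratio was 3.21-fold and the paternal ratio 1.02. The wild-type levels of both alleles are values that chose the region, so these ratios and counts are a description, and nothing is read from the shares of all peaks beside them.

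**Figure D2:**
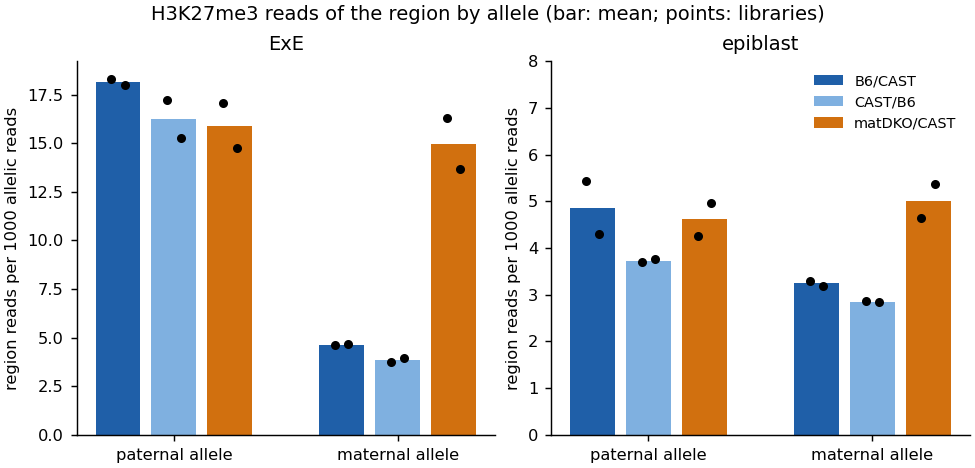
H3K27me3 reads over the region per 1000 autosomal allelic reads (vertical axis), for the paternal and the maternal allele of the 3 crosses in ExE and epiblast; bars are means of 2 libraries and points single libraries. In ExE the maternal bar of matDKO/CAST stands 3.52-fold above the wild-type mean, and the paternal libraries overlap between crosses.

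Total H3K27me3, counted without regard to the allele in 100 kb bins, was high in ExE. Its mean over the region was 0.911 ± 0.073 RPKM (SD, n = 4) in wild-type ExE and 0.443 ± 0.041 RPKM in wild-type epiblast, which is 2.20 and 1.14 times the mean of the autosomes in the same libraries, while inputs lay between 0.433 and 0.469 RPKM. Of 133 bins, 100 were higher in ExE than in epiblast and 3 lower by limma, against 21.4% and 11.9% of all autosomal bins, with a median log2 difference of 0.56 against 0.01 over all bins. The wild-type ExE libraries of this comparison are the ones whose allele calls chose the region. Among the bins with the highest wild-type level in ExE were the Dact2 and Smoc2 bin chr17:14200001-14300000 at 2.38 RPKM and the Pde10a bin chr17:8500001-8600000 at 2.28 RPKM.

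**Figure D3:**
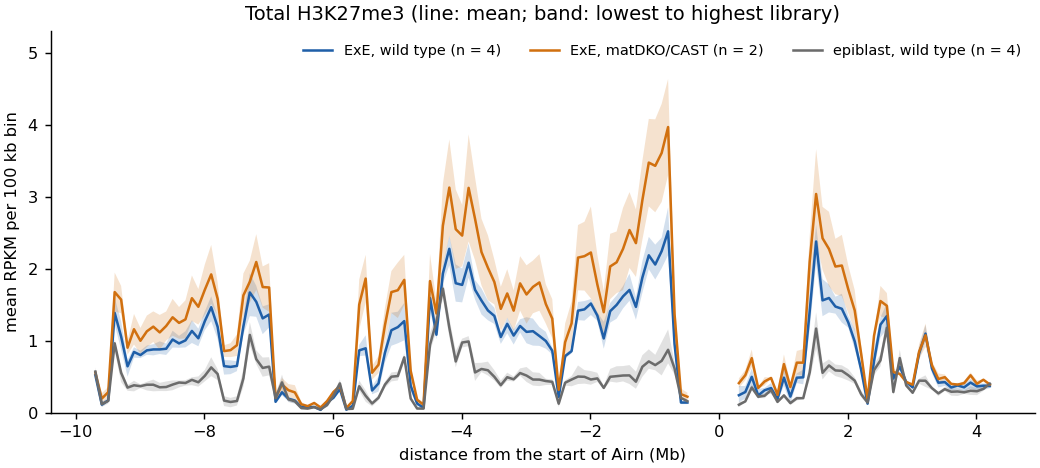
Total H3K27me3 (mean RPKM per 100 kb bin, vertical axis) along the region by distance from the start of Airn (Mb, horizontal axis) in wild-type and matDKO/CAST ExE and epiblast. Lines are means and bands run from the lowest to the highest library; ExE lies above epiblast over most of the region, and the matDKO/CAST ExE band reaches above the wild type.

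In matDKO/CAST ExE total H3K27me3 of the region was 1.50 and 1.05 RPKM, both above the 4 wild-type libraries (0.839 to 0.975 RPKM), and the pair differed from each other by more than the wild-type libraries did. Of the 133 bins, 17 were higher than in the wild type and 0 lower, against 0.87% and 0.146% of all bins, and 130 of 133 had a positive difference (median log2 difference 0.28, against 0.03 over all bins). The bin within Rps6ka2, a ribosomal S6 kinase (chr17:7200001-7300000), had the lowest adjusted p, at 0.895 RPKM in the wild type and 1.86 RPKM in matDKO/CAST (log2 difference 0.75 ± 0.10 (SE), adjusted p = 0.00187). This bin was picked after its values were seen. The wild-type libraries of this comparison are the ones whose allele calls chose the region, so the count of bins and the adjusted p are a description. Single libraries decided this count: the called share of the 133 bins, 12.8%, became 66.9% without matDKO/CAST replicate 3, 21.8% without replicate 2, 6.77% without B6/CAST replicate 1, 3.76% without CAST/B6 replicate 1, and 0.752% without B6/CAST replicate 2 or without CAST/B6 replicate 2.

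In epiblast the region carried less H3K27me3, with a smaller paternal excess. The 94 peaks covered 1.36 Mb (10.2% of the region, against 5.46% of the autosomes), the longest was 163 kb, and 89 of them overlapped an ExE peak, while 37 of the 93 ExE peaks overlapped an epiblast one. The paternal share over the region was 62.2% and 57.4% in B6/CAST, 56.3% and 57.1% in CAST/B6, and 47.8% and 48.0% in matDKO/CAST. The matDKO/CAST libraries lay below all wild-type libraries (difference of the means -10.3 percentage points, two-sided exact permutation test, p = 0.133, the smallest that 2 against 4 libraries can give; adjusted over 7 comparisons 0.233). Relative to the other autosomes the difference was 0.36 on the log2 odds scale (0.53 against 0.17).

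The epiblast share was highest in the 2 megabases before Airn. It was 67.7% ± 5.9 (SD, n = 4) in the last megabase before Airn and 66.9% ± 7.3 in the one before it, and between 50.9% and 59.0% in all other classes of distance, including 52.0% ± 5.9 in the first megabase after Airn, on 153 reads. The B6/CAST replicate 1 library was the highest in both classes before Airn, at 76.2% and 77.4%, and without it the range was 60.6% to 66.6%.

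In the joint fit of both wild-type crosses, which separates the parent from the strain, 15 of 72 informative epiblast peaks were paternal and 0 maternal, against 0.628% and 0.123% of all informative peaks, and 67 of 72 had a positive log2 ratio (median 0.54, against -0.01 over all peaks). Called on each cross alone, 8 were paternal in both, against 0.28% of all peaks. Of the 15, 4 touched Pde10a, 1 lay over Ccr6 (a chemokine receptor) and Mpc1 (a mitochondrial pyruvate carrier), and 1 at the start of Pabpc6. With the library as a block the joint fit called 31, all paternal, and 17 were called in both crosses. The count of 8 in both crosses was 4 with DESeq2, 4 without B6/CAST replicate 1, 14 without B6/CAST replicate 2, 3 without CAST/B6 replicate 1 and 0 without CAST/B6 replicate 2. Without B6/CAST replicate 2 the joint count was 28, without CAST/B6 replicate 1 it was 7 and without CAST/B6 replicate 2 it was 9, and 6 of the 15 peaks were called under every alternative.

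The epiblast peak with the most reads, chr17:8411000-8574000 over T and the first start of Pde10a, had paternal shares of 61.4%, 58.4%, 58.5% and 58.1% in the wild type and 46.9% and 49.05% in matDKO/CAST (joint log2 ratio 0.58 ± 0.10 (SE), adjusted p = 0.00138). Every wild-type library lay above every matDKO/CAST library. The Ccr6 and Mpc1 peak was close to the threshold, at 59.9%, 56.0%, 59.2% and 54.0% against 47.5% and 53.5% (adjusted p = 0.0499).

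3 more of the called peaks lay in introns of Pde10a. At chr17:8578500-8633000 the wild-type shares were 70.5%, 67.2%, 61.6% and 71.1% and the matDKO/CAST shares 52.4% and 52.5% (joint log2 ratio 1.11 ± 0.13 (SE), adjusted p = 5.4e-06). At chr17:8722000-8742500 they were 80.9%, 67.0%, 72.4% and 77.7%, with 52.4% and 42.9% in matDKO/CAST (1.62 ± 0.18). At chr17:8873000-8879500, on 148 wild-type reads, they were 67.8%, 69.2%, 71.4% and 78.6%, with 40% and 64.7%. In none of these peaks did the groups overlap, though in the last one the matDKO/CAST libraries stood far apart from each other. The peak at the start of Pabpc6, chr17:9668000-9678500, had 71.9%, 80%, 61.7% and 59.5%, with 48% and 60% in matDKO/CAST, where the groups met.

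The bias in matDKO/CAST was called different from that in B6/CAST in 1 of the 72 peaks, against 0.146% of all peaks that moved towards the maternal allele. Over the 72 peaks the interaction was negative in 66. The 15 jointly called peaks were called on libraries that include B6/CAST, so their comparison with matDKO/CAST is a description. All 15 jointly called peaks had a negative interaction, and 8 of 72 passed with the library as a block; the single call was lost with DESeq2 and without B6/CAST replicate 1 or matDKO/CAST replicate 1, and the count was 7 without B6/CAST replicate 2 and 2 without matDKO/CAST replicate 2.

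On its own, matDKO/CAST epiblast had 2 paternal calls among the 72 peaks, against 0.84% of all peaks, and both were lost with DESeq2 and without either matDKO/CAST library. In each of these the CAST/B6 libraries were all below 50%, and the B6/CAST libraries all above it.

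The level of the maternal allele again differed between the crosses. It was 3298, 3191, 2863 and 2835 RPM in the wild type and 4652 and 5372 in matDKO/CAST, 1.64-fold higher in the mean, and in 48 of the 72 peaks both matDKO/CAST libraries exceeded all wild-type ones, against 22.8% of all peaks. The paternal level was 4298 ± 801 (SD, n = 4) in the wild type and 4611 in matDKO/CAST, with overlapping libraries. Total H3K27me3 of the region was 0.534 and 0.533 RPKM in matDKO/CAST epiblast, above the wild-type range of 0.389 to 0.488 RPKM. Of the 133 bins, limma called 0 higher and 0 lower, against 0.246% and 0.483% of all bins. At an unadjusted p under 0.05 there were 33 higher and 1 lower, and edgeR on recovered reads called 2.26% of the bins. Shares of all bins at these settings are not given, so neither result is read as a difference.

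The region was chosen on H3K27me3, but with earlier results of these data known, and the marks share pools. The H3K4me3 values are therefore not independent of that choice. H3K4me3 leaned to the maternal allele in ExE. Its paternal share over the region was 44.9% and 45.8% in B6/CAST, 45.8% and 46.6% in CAST/B6, and 45.9% and 48.6% in matDKO/CAST, while in epiblast the wild-type mean was 49.4%. All 4 wild-type ExE libraries lay below all 4 epiblast libraries (48.4% to 50.3%), a difference of -3.57 percentage points (two-sided exact permutation test, p = 0.0286, the smallest that 4 against 4 can give; adjusted over 7 comparisons 0.1, or 0.156 relative to the autosomes). Paired by replicate number, as chosen after seeing the data, ExE was lower in 3 of 3 pairs with a mean difference of -3.29 (exact sign-flip permutation test, p = 0.25, the smallest that 3 pairs can give). The matDKO/CAST libraries overlapped the wild type, with a difference of 1.42 percentage points (exact permutation test, p = 0.267, adjusted 0.373). Relative to the other autosomes they did not overlap, at -0.04 against -0.24 on the log2 odds scale, where the exact permutation test again reached its smallest p of 0.133 (adjusted 0.156).

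In the joint fit, 18 of 118 informative H3K4me3 peaks in ExE were maternal and 0 paternal, against 0.28% and 0.431% of all informative peaks, and 101 of 118 had a negative log2 ratio (median -0.26, against -0.02 over all peaks). In both crosses separately 8 were maternal, against 0.129% of all peaks. Of the 18 peaks, 11 lay at annotated gene starts, 4 in gene bodies (the alternative start of Pde10a among them) and 3 between genes, 16 lay before and 2 after Airn, and in 17 all 4 wild-type libraries were under 50%. DESeq2 called 6 in the joint fit and 1 in both crosses. Leaving out B6/CAST replicate 1, B6/CAST replicate 2, CAST/B6 replicate 1 or CAST/B6 replicate 2 gave 6, 11, 7 and 9 joint calls and 0, 3, 1 and 1 calls in both crosses.

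Of the 18 peaks 6 were called under every alternative, among them those at Zdhhc14, the alternative start of Pde10a, 1700010I14Rik, Dact2 and Smoc2 (plot of H3K4me3 at gene starts). At Pde10a, the peak chr17:8798000-8804000 that holds the promoter printed above had paternal shares of 26.4%, 36.8%, 32.6% and 33.4% in the wild type and 36.1% and 36.4% in matDKO/CAST (joint log2 ratio -1.10 ± 0.10 (SE), adjusted p = 4.08e-12). At Dact2, chr17:14200500-14205500, they were 29.8%, 33.8%, 37.6% and 40.6%, with 46.3% and 43.5% in matDKO/CAST (-0.89 ± 0.11, adjusted p = 2.82e-08). The Dact2 wild-type libraries all lay below both matDKO/CAST libraries, while at Pde10a the highest wild-type library reached the matDKO/CAST pair.

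At Zdhhc14, a palmitoyltransferase, the shares were 43.5%, 44.6%, 29.7% and 40.5%, with 39.0% and 46.8% in matDKO/CAST (-0.63 ± 0.09, adjusted p = 1.02e-06). The bias at 1700010I14Rik, within the long H3K27me3 peak beyond Pde10a, was the strongest of these, at 22.8%, 41.0%, 24.7% and 23.6%, with 42.1% and 41.2% in matDKO/CAST (-1.39 ± 0.19, adjusted p = 6.93e-07).

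Smoc2 had 25.6%, 24.4%, 41.2% and 42.6%, with 26.3% and 40.0% in matDKO/CAST. Arid1b (36.9%, 44.6%, 40.8% and 37.4%) and Rps6ka2 (35.1%, 42.1%, 40.2% and 43.1%), whose promoters are also printed, were maternal in both crosses, with 46.7% and 51.8% and with 46.0% and 44.2% in matDKO/CAST, above all wild-type libraries in both genes. Fndc1, a fibronectin type III domain gene, had 30.3%, 37.9%, 21.7% and 37.7% in the wild type and 50% and 69.2% in matDKO/CAST, a difference that was not called. The peak at T had 42.0%, 48.6%, 37.2% and 40.8%, with 57.3% and 54.8% in matDKO/CAST, and the peak at Qk, an RNA-binding protein, had 43.2%, 44.9%, 45.6% and 45.5%, with 44.2% and 50.8%. The first start of Pde10a (chr17:8523500-8528000) stayed low, at 24.1%, 31.1%, 29.6% and 29.4% in the wild type and 13.3% and 25% in matDKO/CAST, on 147 wild-type reads. The largest joint ratio was that of an intergenic peak before Zdhhc14, chr17:5475500-5477500, with 15.2%, 14.8%, 20% and 47.4% on 89 reads (-1.60 ± 0.40, adjusted p = 0.0315), where CAST/B6 replicate 2 stood apart.

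The maternal H3K4me3 peaks lay where H3K27me3 was. Of the 118 informative H3K4me3 peaks, 69 overlapped an informative H3K27me3 peak in ExE and 49 overlapped none, and all 18 joint calls were among the 69. The median joint log2 ratio was -0.52 for the 69 and -0.10 for the 49. The median paternal share was 41.4% on H3K27me3 in the wild type and 45.4% in matDKO/CAST, and 49% and 48% off it. For the 18 called peaks it was 32.1% and 42.0%, where the wild-type value comes from the libraries that gave the calls. Across the 69 pairs, which share pools, the paternal shares of the 2 marks had r = -0.468 (rho = -0.489), and across the 35 such pairs in epiblast r = 0.244 (rho = 0.059). Many H3K4me3 peaks were paired with the same H3K27me3 peak and its value, so the pairs are not separate measurements. The wild-type ExE H3K27me3 shares also chose the region, so the coefficients are a description.

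**Figure D4:**
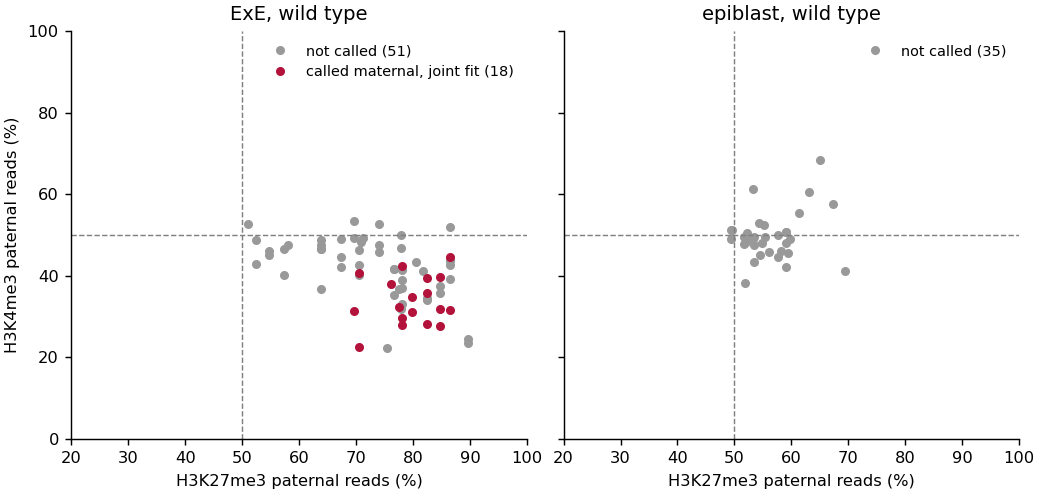
Paternal share of H3K4me3 reads (%, vertical axis) against the paternal share of H3K27me3 reads of the overlapping peak (%, horizontal axis) in the wild type, 1 point per H3K4me3 peak, in ExE and epiblast; the 18 peaks with a joint maternal call are coloured. In ExE the points fall to lower H3K4me3 shares at high H3K27me3 shares, and in epiblast both shares stay nearer 50%.

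In matDKO/CAST alone, 1 of the 118 H3K4me3 peaks in ExE was paternal and 1 maternal, against 0.978% and 1.78% of all peaks; the paternal one, chr17:15682500-15685000, was a CAST peak in the wild type, with 91.9% and 75.6% in B6/CAST and 21.7% and 10.0% in CAST/B6. Of the 18 joint calls, 15 had a higher share in matDKO/CAST than in B6/CAST. The B6/CAST libraries had helped to call these 18 peaks as low, so the 15 are a description. Over all 118 peaks the log2 difference in bias from B6/CAST to matDKO/CAST was positive in 73 and negative in 45. A difference in bias from B6/CAST to matDKO/CAST was called in 0 of 118 peaks by edgeR, against 0.0819% of all peaks towards the paternal and 0.81% towards the maternal allele, in 3 at an unadjusted p under 0.05, in 0 by DESeq2 and in 1 with the library as a block. With the block 11 peaks were called in matDKO/CAST alone, 4 paternal and 7 maternal, and without matDKO/CAST replicate 3 the count was 4.

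In epiblast, 0 of 97 informative H3K4me3 peaks had a parental bias in the joint fit by edgeR, against 0.162% paternal and 0.0344% maternal among all peaks, and 0 had an unadjusted p under 0.05 or a call by DESeq2. In matDKO/CAST epiblast 2 were paternal and 4 maternal, against 2.64% and 4.53% of all peaks, a share near the background, and 10 were called with the library as a block, 1 with DESeq2, 0 without matDKO/CAST replicate 1 and 1 without replicate 2. Among the peaks called, the peaks at Dynlt1b and Dynlt1f, near-identical dynein light chain copies, rest on 37 and 50 wild-type reads that may be assigned to the wrong copy.

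Total H3K4me3 in 100 kb bins was higher in ExE than in epiblast in 4 of 133 bins and lower in 8, against 2.98% and 5.13% of all bins, shares near the background. In matDKO/CAST ExE the bin of T fell from 0.969 to 0.504 RPKM (log2 difference -0.55 ± 0.11, adjusted p = 0.0442), 1 of 133 bins against 0.0458% of all bins, and the call was lost without either matDKO/CAST library.

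H3K36me3 had few parental calls. Its paternal share over the region was 46.6% to 48.2% in wild-type ExE and 49.9% to 50.8% in epiblast, a difference of -2.65 percentage points without overlap (exact permutation test, p = 0.0286, adjusted 0.1; relative to the autosomes p = 0.0571). Paired by number it was lower in ExE in 4 of 4 pairs, with a mean difference of -2.66 (exact sign-flip permutation test, p = 0.125, the smallest possible). In matDKO/CAST it was 45.8% and 48.4% in ExE and 49.01% and 48.6% in epiblast. Of 34 informative ExE peaks, 1 was maternal in the joint fit, against 0.188% of all peaks. A negative log2 ratio was found in 27 of the 34 (median -0.13, against -0.0045 over all peaks), and 6 had an unadjusted p under 0.05. The share of all peaks at that unadjusted p is not given, so nothing is read from the 6. The called peak lies in the Arid1b gene body (chr17:5306000-5346000), with 35.7%, 32.2%, 49.3% and 44.6% in the wild type and 37.5% and 39.5% in matDKO/CAST (log2 ratio -0.55 ± 0.14, adjusted p = 0.0204), and was lost with DESeq2 and without any single library. In epiblast edgeR called 0 of 51, against 0.0993% paternal and 0.0542% maternal among all peaks, with 33 of 51 ratios positive, 5 at an unadjusted p under 0.05 and 0 by DESeq2. Total H3K36me3 was higher in ExE in 25 and lower in 59 of 133 bins, against 21.5% and 45.9% of all bins, shares near the background. In matDKO/CAST 1 bin was higher and 0 lower in ExE, against 0.0624% and 0.308% of all bins, and 1 was higher and 1 lower in epiblast, against 0.312% and 0.824%.

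By groups of genes, the 6 genes that the study lists as known or putative imprinted genes, partly from these samples and with Pde10a, Arid1b, Dact2, Smoc2 and Thbs2 among them, all had ExE H3K27me3 above 50% paternal in all 4 wild-type libraries, with a median of 81.3% and 52.1% in matDKO/CAST. Of 12 regulators and signalling genes, 8 had an informative H3K27me3 peak and all 8 were above 50% in every wild-type library, with a median of 72.5%. Dll1 had 64.9%, 66.6%, 63.1% and 61.2%, with 50.2% and 51.5% in matDKO/CAST. Rgmb, a co-receptor of bone morphogenetic proteins, had the lowest share of the called peaks, at 61.6%, 57.1%, 58.4% and 53.7%, with 44.4% and 48.9%. Of 15 genes used in most cells, 3 had an informative H3K27me3 peak and 2 were above 50% throughout. Of all 34 coding genes with an informative peak, 32 were above 50% in every wild-type library, against 7.31% of all autosomal coding genes with such a peak. These values chose the region, so the counts of the lists are a description.

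For H3K4me3 in ExE, all 5 listed genes with an informative start were below 50% paternal in all 4 wild-type libraries, as were 6 of 10 regulators, 3 of 14 widely used genes and 17 of all 45 coding genes measured, against 4.86% of all autosomal coding genes with an informative start. The joint fit called 5, 4, 1 and 12 of them maternal, the last count including the first 3, against 0.255% of the autosomal genes. The listed genes were chosen partly from these samples. Tbp, the TATA-binding protein, shares its start peak with Psmb1, a proteasome subunit, and had 48.8%, 50.2%, 49.5% and 45.2%, with 49.7% and 50.3% in matDKO/CAST. Ezr had 49.9%, 51.9%, 49.4% and 50.2%, and neither peak overlapped H3K27me3. The Tcp10 family, 3 near-identical genes of which reads may be split, had informative H3K27me3 only over Tcp10a, in the peak it shares with Rps6ka2. No coding gene of the Vmn2r, Fpr or Zfp families is annotated in the region.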

How the data were processed

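Native MNase ChIP-seq for H3K4me3, H3K27me3 and H3K36me3 with inputs was measured in 36 ChIP and 15 input libraries. Per the submitters' processing notes, reads were trimmed with Trim Galore 0.4.4 and aligned with Bowtie2 2.3.2 to GRCm38. The authors assigned reads to the parental alleles and deposited raw read counts per peak and allele in 6 tables, and RPKM (linear scale) per 1 kb window in another table. The 12 deposited peak lists were not used, and 0 columns of the tables lacked a sample. Coordinates are printed as in the tables, and genes are from GENCODE vM21.

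Allele columns of a library were compared by edgeR 4.0.16 (R 4.3.3; quasi-likelihood test, TMM scaling) across all informative autosomal peaks, each cross alone, both wild-type crosses jointly (parent and strain as terms), and matDKO/CAST against B6/CAST. DESeq2 1.42.0 and a library block were alternatives. The block pairs the maternal and paternal columns of 1 library, a pairing given by the design. Between tissues of a wild-type cross, deviations of same-numbered libraries in 100 kb bins correlated at 0.146 to 0.789, each value resting on 2 libraries per tissue, so paired tests are given beside the tissue comparison of shares; no label says that a number marks a shared pool. The RPKM windows were averaged into 100 kb bins and tested by limma 3.58.1 on log2(RPKM + 0.5), so fold changes of low bins are understated, and values of low windows (up to 20 reads) were whole multiples of 1 read for 100% of values (tolerance 0.02), which allowed an edgeR test on recovered reads. Windows above 4 RPKM in the inputs were kept, and leaving them out was an alternative. A call is a Benjamini-Hochberg adjusted p below 0.05 over all features, and shares over the region were compared by two-sided exact permutation tests (scipy 1.17.1). Counts at an unadjusted p or under an alternative setting have no share of all features beside them and are not read as an enrichment. The tests were checked on simulated data.

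The region, the gene lists and the tests were chosen with earlier results of these data known. Genes named are those that the study lists as imprinted, regulators and genes used in most cells; called H3K4me3, H3K36me3 and epiblast H3K27me3 peaks (all up to 10, otherwise 5 by reads and 5 by size of the bias); and for ExE H3K27me3 peaks among the 5 with most reads and the outermost called ones. Others are said to have been picked after their values were seen. Some peaks and genes of the region are not reported here.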

Additional observations from a re-analysis of the deposited data

Results flagged for a closer look

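In 2 results the tissues differed under the same comparison of the alleles. The wild-type paternal share of H3K4me3 over the region was lower in ExE (44.9% to 46.6%) than in epiblast (48.4% to 50.3%), a difference of -3.57 percentage points. The wild-type paternal share of H3K36me3 was lower in ExE (46.6% to 48.2%) than in epiblast (49.9% to 50.8%), a difference of -2.65 percentage points. Both differences were tested by exactly permuting the tissue labels of the 8 libraries (p = 0.0286, the smallest possible, adjusted 0.1 over 7 comparisons). With the libraries of a cross paired by replicate number, ExE was lower in 3 of 3 pairs for H3K4me3 and in 4 of 4 pairs for H3K36me3, with exact sign-flip permutation p of 0.25 and 0.125, the smallest such pairs can give. The comparison of tissues was added after the shares had been seen.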

How the results depend on the processing

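Of the summary values under all alternatives 347 stayed within 1.5 times the reported count or within the replicate spread, and 125 moved further. In 1 a reported difference larger than the replicate spread changed sign. The other changes of sign named below are counted among the 347 and the 125. For single peaks 317 calls held, 104 were lost and 0 turned direction. The fit pooled over crosses, also used where a replicate was left out, was chosen after seeing the data, and a lone library of a cross was then assumed to vary like the others. The cause of the changes was not tested, except that a stricter p or fewer libraries leaves fewer calls by construction.

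For ExE H3K27me3, the matDKO/CAST count of 15 became 23 with 20 reads required in each cross, 2 with DESeq2, 25 with library totals, 29 in the pooled fit and 35 with the library block (9 to 27 with a replicate left out; both crosses 43 to 50). In epiblast, the count in both crosses became 4 with DESeq2 and 17 with the block (0 to 14), the joint count 31 with the block (7 to 28), the matDKO/CAST count 0 with DESeq2 and 1 in the pooled fit or at an adjusted p of 0.01 (0 to 0), and the difference between matDKO/CAST and B6/CAST 0 with DESeq2, 3 without the low-count filter, 2 in the pooled fit, 8 with the block and 0 at 0.01 (0 to 7). For ExE H3K4me3, the count in both crosses became 1 with DESeq2, 4 in the pooled fit and 2 at 0.01 (0 to 3), the joint count 6 with DESeq2 (6 to 11), the matDKO/CAST count 1 with DESeq2, 4 without the filter, 4 in the pooled fit, 11 with the block and 1 at 0.01 (2 to 4), and the difference from B6/CAST 1 with the block. For epiblast H3K4me3 in matDKO/CAST it became 1, 2, 10 and 3 with DESeq2, the pooled fit, the block and 0.01 (0 to 1). For ExE H3K36me3 the joint count became 0 with DESeq2, 2 with the block and 0 at 0.01 (0 with any replicate left out), and the matDKO/CAST count 1 with the block.

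For total H3K27me3 in matDKO/CAST ExE, 12.8% of bins became 8.27% in 50 kb bins, 52.4% in bins of at least 0.1 RPKM, 73.7% with the replicate number as a block and 0.752% at 0.01 (0.752% to 66.9%). In epiblast 0% became 0.376% (50 kb), 2.26% (edgeR), 3.17% (0.1 RPKM), 1.5% (pseudocount 0.1) and 36.8% (replicate block). H3K36me3 of ExE against epiblast, where 21.5% of all bins were higher and 45.9% lower, gave 63.2% and 41.4% at 0.01 (45.9% to 60.9%). Its matDKO/CAST difference in ExE gave 0.752%, then 0.376% (50 kb) and 1.5% (replicate block; 0.752% to 1.5%), and in epiblast 1.5%, then 0% (edgeR), 2.36% (0.1 RPKM), 6.02% (replicate block) and 0% at 0.01 (0% to 2.26%). H3K4me3 of ExE against epiblast gave 9.02%, then 4.51% (edgeR) and 13.9% (0.1 RPKM; 7.52% to 10.5%), and in matDKO/CAST ExE 0.752%, then 1.13% (50 kb), 1.74% (0.1 RPKM), 2.26% (pseudocount 0.1), 0% (pseudocount 1) and 0% at 0.01 (0% to 0.752%). ExE against epiblast for H3K27me3 stayed at 71.4% to 77.4% with a replicate left out. Replicate numbers do not mark a shared pool between crosses, and deviations of same-numbered libraries correlated between -0.746 and 0.778 across crosses, so the replicate block is given here only for them. In the comparisons of tissues it changed no count by over 1.5 times, and as pairs of replicate numbers, chosen after seeing the data, the tissue difference in paternal share was -3.29 for H3K4me3 and -2.66 for H3K36me3, with no p below 0.125.

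The difference in paternal share between matDKO/CAST and the wild type, as the mean over informative peaks, was -20.1 for ExE H3K27me3 and -0.58 for epiblast H3K36me3. Relative to the other autosomes it was -24.3 and -6.11 for H3K27me3 in ExE and epiblast and 3.37 for ExE H3K4me3, and the sign turned for epiblast H3K4me3 (-0.17 to 1.85), ExE H3K36me3 (-0.43 to 2.49) and epiblast H3K36me3 (-1.37 to 1.43). Over informative peaks only, epiblast H3K4me3 was at 0.07. Of the differences tested, none had an adjusted p below 0.05 on either scale. With a replicate left out it ranged from -29.02 to -28.01 and -10.98 to -9.03 for H3K27me3, 0.09 to 2.75 and -0.49 to 0.12 for H3K4me3, and -1.72 to 0.87 and -1.56 to -1.15 for H3K36me3, in ExE and epiblast, so epiblast H3K4me3 and ExE H3K36me3 changed sign there too. The level ratios became 1.02 (same-allele total or TMM) for the paternal allele in ExE (0.858 to 0.992), 3.21 and 3.29 for the maternal allele in ExE (3.21 to 3.83), and 1.52 and 1.43 for it in epiblast (1.53 to 1.76; paternal 0.991 to 1.18).

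Depth limits the H3K36me3 peaks of both tissues and the epiblast H3K27me3 peaks most, since some libraries held under 3000 reads in the region.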
